A study of Mus musculus with 28 samples.

Results

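The cytosolic ribosomal protein genes encode the proteins of the ribosome outside mitochondria. They were taken as the autosomal protein-coding genes of the GENCODE annotation of mm10 with an *Rpl* or *Rps* symbol of the standard form, together with *Rpsa*, *Rplp0*, *Rplp1* and *Rplp2*. This gave 72 of 20807 autosomal protein-coding genes, with 43 for the large and 29 for the small subunit. Their marks were read from the striatum in 2 mouse lines, Sun1-sfGFP;A2a-cre for A2a and, for D1, Sun1-sfGFP;Drd1-cre, in which Cre removes a stop cassette from the R26 locus so that the CAG promoter drives a GFP-tagged nuclear envelope protein. All were untreated C57BL/6J mice of about 8 weeks by the methods, although a wider age range is also stated for them, and a library came from the nuclei of 1 striatum. INTACT (affinity purification of tagged nuclei) was followed by CnR (CUT&RUN, antibody-directed cutting of chromatin) for the histone marks H3K4me3 and H3K27me3, with 2 replicates for each cell type and mark. Each of the 4 deposited lists was made from both replicates together. Values below therefore come without a replicate error, and differences of A2a from D1 medium spiny neurons (MSNs) could not be tested.

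Each ribosome carries 1 copy of nearly every ribosomal protein, and neurons transcribe these genes constantly. H3K4me3 lies over the 5′ ends of transcribed or transcribable genes, whereas H3K27me3 is deposited by Polycomb repressive complex 2 over genes that are kept silent. A2a and D1 MSNs are the projection neurons of the indirect and direct striatal pathways. Ribosomal protein mRNAs of mammals typically begin with a C followed by a run of pyrimidines, the terminal oligopyrimidine tract, through which their translation responds to growth signals.

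In the text, the promoter of a gene is the interval from 2 kb upstream to 1 kb downstream of its annotated 5′ end, and a single shared base was enough to assign a peak or island to it. For H3K4me3 there were 22551 A2a and 20080 D1 peaks, and for H3K27me3 there were 60191 A2a and 45760 D1 islands. Library totals are not part of the lists, so the depth behind each value is unknown. Peaks were therefore ranked within their own list by −log10 q, and the percentile of a gene is that of its strongest promoter peak, where 100 is the top of the list. Fold enrichment is the peak signal over the local background of the same pooled library. At *Adora2a* and *Drd1*, H3K27me3 followed the cell type labels. *Adora2a* had an H3K27me3 island of 4153 reads in D1 and none in A2a. The island at *Drd1* held 1958 reads in A2a and 86 in D1. Across the cell type genes that were read, H3K4me3 fold enrichment followed the label at some and went against it at others. For the D1 H3K27me3 samples the source name reads A2a while title and cell type read D1, and they were taken as D1. The A2a list held 1 H3K4me3 peak over *Xist* and no promoter peak among 183 Y-linked protein-coding genes, while D1 held 0 and 4. The methods state that males and females were divided equally between groups. Given these peaks, cell type and sex of the pooled mice nevertheless cannot be told apart in what follows.

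Promoters of the ribosomal protein genes carried H3K4me3 and lacked H3K27me3 almost without exception. An H3K4me3 peak was present at 69 of 72 promoters (95.8%) in A2a, where 59.3% of all autosomal protein-coding genes had one. In D1 it was present at 70 of 72 (97.2%), against 56.8% of all genes. All 69 promoters with a peak in A2a also had one in D1, and 56.7% of all genes had one in both. An H3K27me3 island touched 2 promoters (2.78%) in A2a, against 22.4% of all genes, and 2 promoters in D1, against 15.8%. A peak in both lists with no island in either was found at 67 promoters (93.1%), against 48.3% of all genes. The remaining 5 members were *Rpl38* and *Rps29*, which had peaks in both lists and an island in 1 of them, *Rps10*, which had a peak in D1 only, and *Rpl17* and *Rps2*, which had none.

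These promoters differed in sequence at the bases that surround the start. The stretches below run 5′ to 3′ on the coding strand of GRCm38, the build of the lists, from 80 bases before a start to the first 20 bases of the transcript. Capitals mark a pyrimidine tract at the start and matches to 4 short motifs: the GC box (GGGCGG), an ETS-type site (CCGGAAG) and a YY1-type site (AAGATGG), each on either strand, and TATAA on the coding strand between 40 and 16 bases before the start. They are shown for the member with the highest mean percentile (*Rpl35a*), the lowest among those with a peak in both lists (*Rpl18*), both members with an island in 1 list, and *Rps2* and *Rps10*. For *Rpl18*, *Rps2* and *Rps10* the annotated 5′ end is followed by a protein-coding transcript start further inside the gene that lay under a peak in both lists.
Rpl35a, annotated start, chr16:33056373-33056472, plus strand: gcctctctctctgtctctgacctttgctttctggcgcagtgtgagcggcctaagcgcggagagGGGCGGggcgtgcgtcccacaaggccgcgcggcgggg
Rpl18, annotated start, chr7:45715377-45715476, plus strand: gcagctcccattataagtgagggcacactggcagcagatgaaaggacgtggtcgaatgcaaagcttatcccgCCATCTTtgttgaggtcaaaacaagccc
Rpl18, start 2614 bp inside the gene, chr7:45717991-45718090, plus strand: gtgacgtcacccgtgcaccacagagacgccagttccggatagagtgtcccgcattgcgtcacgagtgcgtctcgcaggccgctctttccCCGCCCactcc
Rpl38, annotated start, chr11:114668444-114668543, plus strand: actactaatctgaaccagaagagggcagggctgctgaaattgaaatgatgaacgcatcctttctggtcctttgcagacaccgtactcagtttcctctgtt
Rps29, annotated start, chr12:69159167-69159266, minus strand: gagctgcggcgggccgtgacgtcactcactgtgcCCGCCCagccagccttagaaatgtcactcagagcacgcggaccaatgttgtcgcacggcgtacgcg
Rps2, annotated start, chr17:24718036-24718135, plus strand: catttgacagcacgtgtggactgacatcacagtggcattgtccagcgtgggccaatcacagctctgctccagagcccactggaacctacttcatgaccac
Rps2, start 1994 bp inside the gene, chr17:24720030-24720129, plus strand: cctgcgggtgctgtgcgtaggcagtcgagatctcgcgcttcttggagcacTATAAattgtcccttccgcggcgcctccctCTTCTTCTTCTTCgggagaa
Rps10, annotated start, chr17:27636650-27636749, minus strand: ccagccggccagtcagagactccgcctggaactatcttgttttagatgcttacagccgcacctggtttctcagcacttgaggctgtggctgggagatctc
Rps10, start 1425 bp inside the gene, chr17:27635225-27635324, minus strand: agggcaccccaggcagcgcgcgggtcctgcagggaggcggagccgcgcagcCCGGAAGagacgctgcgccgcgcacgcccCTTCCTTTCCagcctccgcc

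At *Rps2*, which encodes a protein of the small subunit near the mRNA entry channel, the annotated start had no tract and no peak in its promoter in either list. The start 1994 bp inside the gene opened with a tract of 13 pyrimidines and lay under an H3K4me3 peak in both lists. This peak had a fold enrichment of 5.10 at percentile 68.5 in A2a and of 6.61 at percentile 92.1 in D1. *Rps10*, another small subunit protein gene, showed the same arrangement. Its start 1425 bp inside the gene opened with a tract of 10 pyrimidines, carried an ETS-type match and lay under a peak that stood at percentile 74.6 of the A2a list and 82.2 of the D1 list. The D1 peak was long enough to reach the promoter window of the annotated start, with its summit 1594 bp inside the gene, and the A2a peak was not. That D1 peak also covered the start of *RPS10-NUDT3*, a read-through gene that overlaps *Rps10*.

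*Rpl17*, a large subunit protein gene on chromosome 18, also lacked a promoter peak in both lists, and its start 1919 bp inside the gene was covered by a peak at percentile 62.1 in A2a and 85.9 in D1. *Rpl18*, the member with the lowest values among those with peaks, had a promoter peak of 857 bp at percentile 21.1 in A2a and of 423 bp at percentile 34.7 in D1, and in both lists this peak ended upstream of the annotated start. The peak over its start 2614 bp inside the gene stood at percentiles of 87.0 (A2a) and 77.7 (D1). For *Rps24* the promoter peak lay upstream of the annotated start in both lists, with percentiles of 45.7 (A2a) and 45.6 (D1). The D1 peak covered the start of *Polr3a*, a subunit gene of RNA polymerase III that is transcribed in the other direction from 67 bp away. A *Rps24* start 3593 bp inside the gene, with a tract of 17 pyrimidines, lay under a separate peak at percentile 77.5 in A2a and 80.5 in D1. *Rps14*, on chromosome 18, had its highest ranked peak 27498 bp inside the annotated gene, at percentile 89.7 in A2a and 99.0 in D1, against 80.6 and 65.6 at the annotated promoter.

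When every annotated protein-coding transcript start was read in place of the gene's 5′ end, all 72 members had an H3K4me3 peak over a start in A2a and in D1. Over all autosomal protein-coding genes this share was 58.4% in A2a and 55.9% in D1. More than 1 protein-coding start was annotated for 49 members, and 10 had one more than 1 kb inside the gene. How common either is over all genes was not counted. Read this way, the percentile of the strongest peak ranged from 54.9 to 99.9 in A2a, with 87.3 as the median, and between 48.0 and 99.9 in D1, where the median was 92.2. Under the 50th percentile lay no member in A2a and 1 in D1, *Rpl35*, a large subunit protein at the exit tunnel. Its promoter peak was also weak in fold enrichment, at 4.18 in A2a and 3.45 in D1, and the A2a peak lay wholly upstream, ending 1999 bp before the start, while a weaker peak of 3.88-fold covered the start itself.

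**Figure D1:**
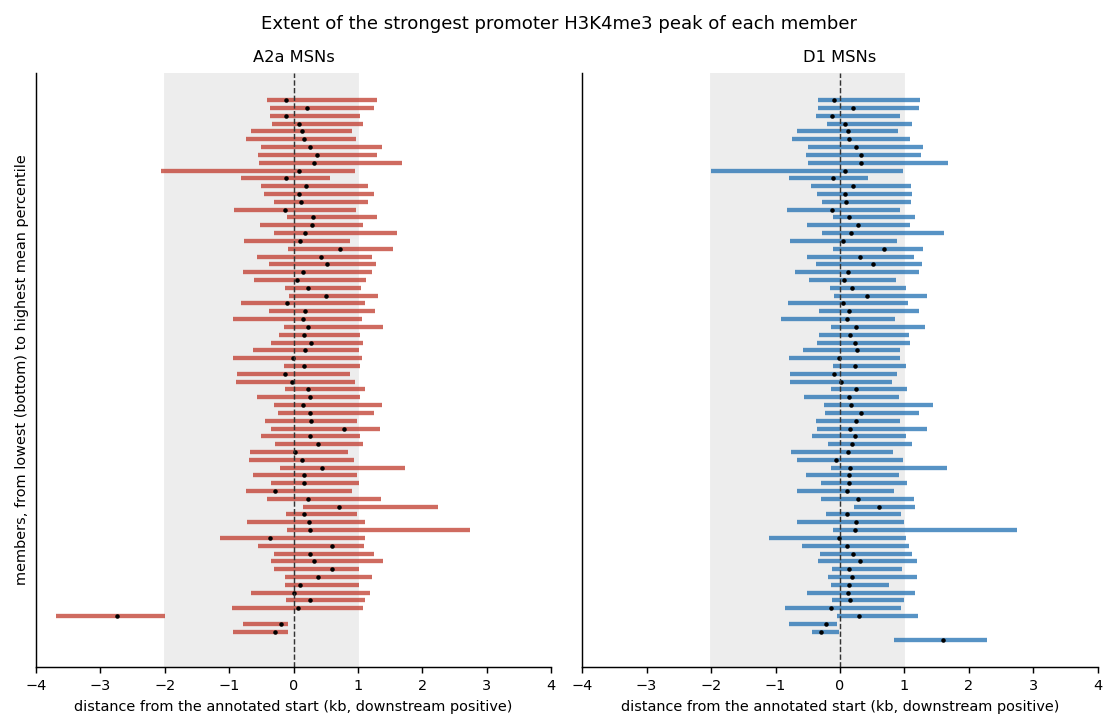
Extent of the strongest H3K4me3 peak in the promoter of each member, in kb from the annotated start (dashed line, downstream positive), in A2a (left) and D1 (right), with the summit as a black dot and the promoter window shaded. The bars cross the start at 65 members in A2a and 66 in D1; the bars that miss it belong to *Rpl18*, *Rps24*, *Rps14*, *Rpl35* (A2a) and *Rps10* (D1).

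In length and in how often they covered the start, the promoter peaks of the ribosomal protein genes were close to those of other genes. The strongest peak covered the annotated start at 65 of 69 members in A2a (94.2%) and 66 of 70 in D1 (94.3%), against 87.6% and 86.7% of all genes with a promoter peak. Its summit lay a median of 172 bp downstream of the start in A2a and 149 bp in D1, against 238 bp and 156 bp over all genes with a promoter peak. The summit fell within 400 bp downstream of the start for 46 members in A2a (66.7%) and 54 in D1 (77.1%), against 40.4% and 50.3% of all genes with a promoter peak. Median peak length was 1643 bp in A2a and 1507 bp in D1, close to the 1622 bp and 1518 bp of all genes with a promoter peak. The longest peaks belonged to *Rpl7* (3010 bp in A2a, 2983 bp in D1) and *Rpl41*, which encodes one of the shortest known proteins (2844 and 2866 bp), followed by *Rpl3* in A2a (2244 bp) and *Rpl15* in D1 (2178 bp). The shortest in A2a were those of *Rps24* (700 bp), *Rpl18* (857 bp) and *Rplp0* (1103 bp), and in D1 those of *Rpl18* (423 bp), *Rps24* (745 bp) and *Rpl36* (905 bp). A2a peaks were longer than D1 peaks at 56 of 69 members (81.2%), the same share as over all genes (81.3%).

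**Figure D2:**
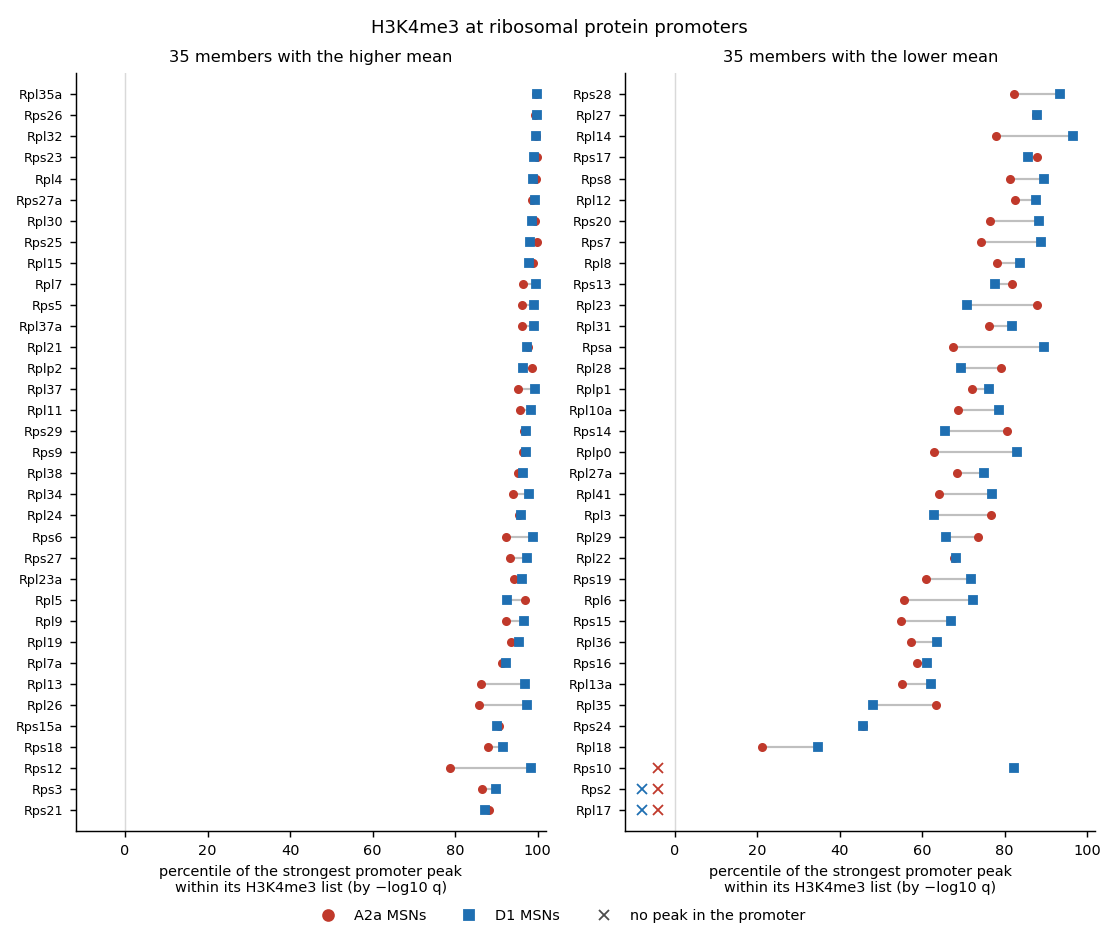
Percentile of the strongest promoter H3K4me3 peak of 70 of the 72 members within the A2a list (red circles) and the D1 list (blue squares), ordered by their mean, with crosses (bottom right) where a list held no promoter peak. Most members lie above the 70th percentile in both lists, and *Rpl18* lies lowest of those with peaks, at 21.1 and 34.7.

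Members ranked high in both lists. The median percentile was 87.6 in A2a (range 21.1 to 99.9, n = 69 members with a peak) and 90.9 in D1 (34.7 to 99.9, n = 70), against 72.8 and 71.6 over all genes with a promoter peak. At or above the 90th percentile were 30 members in A2a (43.5%) and 36 in D1 (51.4%), against 19.5% and 19.2% of all genes with a promoter peak. Below the 50th were 2 (2.90%) and 3 (4.29%), against 18.4% and 21.3%. In fold enrichment the members were less far from other genes, with a median of 8.67 in A2a and 9.23 in D1 against 7.67 and 7.52. Ranked by fold enrichment in place of −log10 q, their median percentile was 74.9 in A2a and 84.9 in D1, against 63.1 and 65.5 for all genes. Large and small subunit genes ranked alike in A2a, with medians of 87.7 and 86.5, and had medians of 94.1 and 89.8 in D1.

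The highest ranked members of the A2a list were *Rps23* (percentile 99.9, 13.7-fold), *Rps25* (99.8, 11.6-fold), *Rpl4* (99.7, 10.1-fold), *Rpl32* (99.7, 12.7-fold) and *Rpl35a* (99.6, 10.0-fold). *Rps23* encodes a protein of the decoding centre. *Rpl35a* ranked first among members in D1 (99.9, 11.7-fold), followed by *Rps26* (99.8, 13.4-fold), *Rpl7* (99.7, 6.48-fold), *Rpl32* (99.6, 13.1-fold) and *Rpl37* (99.5, 10.0-fold). The *Rpl7* peak was long and of modest enrichment, and that of *Rps26* measured 1566 bp with high enrichment. After *Rpl18* and *Rps24*, low percentiles in A2a were found at *Rps15* (54.9, 4.42-fold), *Rpl13a* (55.2, 4.46-fold) and *Rpl6* (55.6, 8.67-fold), and in D1 at *Rpl35* (48.0, 3.45-fold) and *Rps16* (61.1, 7.75-fold). Without replicate error, neighbours in this order cannot be called different.

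**Figure D3:**
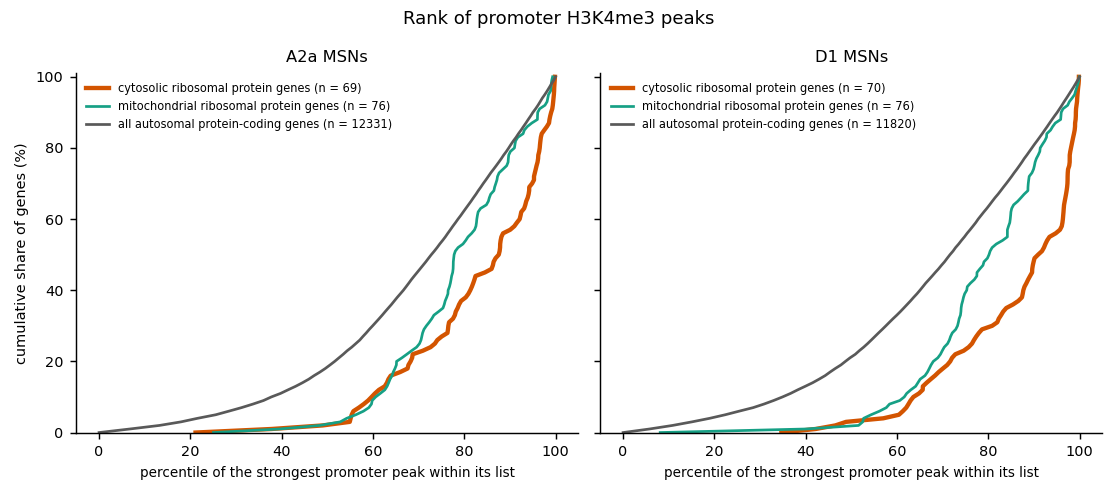
Cumulative share of genes (%) by the percentile of their strongest promoter H3K4me3 peak in A2a (left) and D1 (right), for cytosolic ribosomal protein genes, mitochondrial ribosomal protein genes and all autosomal protein-coding genes with a promoter peak. The curve of the cytosolic genes lies furthest right over most of its course, with medians of 87.6 and 90.9 against 77.8 and 80.2 for the mitochondrial genes and 72.8 and 71.6 for all genes.

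The smaller groups of ribosomal protein genes each had peaks and no islands. The stalk that recruits elongation factors is built from *Rplp0* (percentile 62.9 in A2a and 83.0 in D1), *Rplp1* (72.2 and 76.3) and *Rplp2* (98.5 and 96.4). *Rplp2* ranked above its partner *Rplp1*, although both proteins enter the stalk as pairs. Ribosomal proteins made as a fusion with ubiquitin or a ubiquitin-like protein are encoded by *Rps27a*, a member (98.7 and 99.4), and by *Fau* (56.9 and 80.3), whose symbol falls outside the rule, among others. The 4 X-linked genes left out of the members had peaks in both lists: *Rps4x* (77.3 and 75.6), *Rpl10* (74.2 and 75.1), *Rpl36a* (93.8 and 84.7) and *Rpl39* (77.2 and 77.0).

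Several ribosomal protein genes have a paralog elsewhere in the genome. *Rpl3l*, which is made in skeletal muscle and heart, *Rpl10l*, which is made in testis, and *Rpl39l* had no H3K4me3 peak in either list, and none had an H3K27me3 island in its promoter. *Rpl7l1* (79.1 in A2a, 68.0 in D1), *Rpl22l1* (90.1 and 99.2), *Rpl36al* (98.3 and 98.8) and *Rps27l* (80.5 and 69.1) had peaks in both lists and no island. Processed copies of ribosomal protein mRNAs are abundant in the mouse genome, and 300 annotated genes carried an *Rpl* or *Rps* symbol with the suffix -ps. Most of them are annotated as processed pseudogenes, and a few, such as *Rpl10-ps3*, as protein-coding. An H3K4me3 peak lay in the window of 4 of the 300 in each list (1.33%), against 59.3% (A2a) and 56.8% (D1) of autosomal protein-coding promoters. Of these 4, 3 had no protein-coding start in that window, and a peak lay over the body of 1. An H3K27me3 island lay in the window of 44 of the 300 in A2a (14.7%) and 28 in D1 (9.33%), against 22.4% and 15.8% of autosomal protein-coding promoters. Reads that map equally well to a gene and its copy were removed by the authors' mapping quality threshold of 20.

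Among related gene groups, all 17 other mRNAs known to carry the pyrimidine tract had a promoter peak in both lists, with a median percentile of 86.2 in A2a and 89.0 in D1. *Rack1*, a scaffold protein of the small subunit, stood at 99.99 in A2a and 99.95 in D1, above every ribosomal protein gene. The lowest was *Eef1a1*, the elongation factor that delivers aminoacyl-tRNA, at 19.1 and 0.64 at its annotated 5′ end and at 80.3 and 72.7 over its protein-coding transcript starts. The rest at the annotated 5′ end ranged from *Eef1g* (51.9 and 77.0) and *Nap1l1* (62.7 and 69.1) to *Eef1b2* (96.0 and 99.7), *Eef1d* (96.7 and 98.3) and *Eif3e* (97.0 and 97.5). *Eef2*, *Eif3f*, *Eif3h*, *Eif4b*, *Pabpc1*, *Tpt1*, *Npm1*, *Hnrnpa1*, *Naca* and *Btf3* lay between. *Eef1a1* and *Eif3h* had an H3K27me3 island in the A2a list, of 125 and 172 reads, and none of the 17 had one in D1.

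Genes for ribosome assembly and rRNA transcription (*Ncl*, *Fbl*, *Nop56*, *Nop58*, *Nop2*, *Nhp2*, *Gar1*, *Polr1a*, *Polr1b*, *Ubtf*, *Rrn3*, *Bop1*, *Pes1* and *Wdr12*) had peaks at 14 of 14 promoters in both lists and no island, with median percentiles of 73.8 in A2a and 85.2 in D1. *Polr1a*, the largest subunit of RNA polymerase I, stood at 99.6 and 98.3, and *Nop2*, an rRNA methyltransferase, at 54.9 and 44.4. The 78 mitochondrial ribosomal protein genes, whose products form the separate ribosome of mitochondria, had a peak at 76 promoters in each list. Their median percentile was 77.8 in A2a and 80.2 in D1, below the 87.6 and 90.9 of the cytosolic genes. Their median fold enrichment, at 9.25 and 9.26, was the higher of the pair in A2a and nearly equal in D1. An island touched 3 of their promoters in A2a and 0 in D1.

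**Figure D4:**
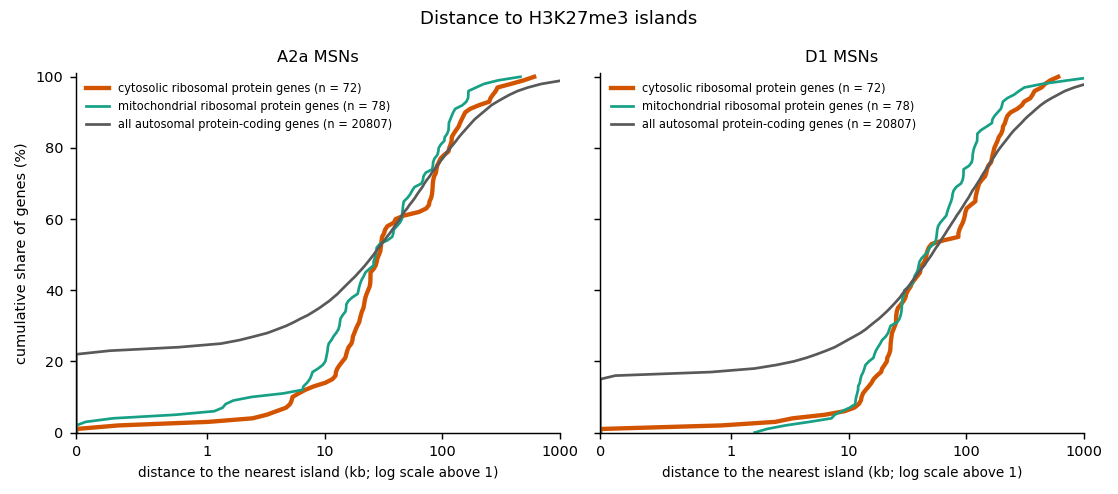
Cumulative share of genes (%) by the distance from the promoter to the nearest H3K27me3 island, in kb (log scale above 1 kb), in A2a (left) and D1 (right). The curves start at the share of promoters that an island touches, and the cytosolic and mitochondrial ribosomal protein genes stay below all genes at distances up to 10 kb, where they reach 13.9% (A2a) and 6.94% (D1) for the cytosolic genes.

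Of the 4 islands at member promoters, those at *Rpl38* and *Rps29* were small. Those at *Rpl17* were longer than the median island of their list, which was 3600 bp in A2a and 3000 bp in D1. An A2a island of 4.6 kb at *Rpl17* (chr18:74992801-74997400) held 377 reads (95% exact Poisson interval 340 to 417, counting error only), stood at percentile 76.9 of its list by reads and overlapped the promoter by 843 bp. A D1 island of 3.8 kb there (chr18:74994001-74997800) held 158 reads (134 to 185), stood at percentile 73.4 and overlapped by 1243 bp. Both lay upstream of the annotated start, on the side away from the peak inside the gene. *Rpl38*, a large subunit protein known for its part in translation of *Hox* mRNAs, had an A2a island of 2.0 kb with 119 reads (98.6 to 142) at percentile 11.4, which entered the window by 77 bp. *Rps29*, a small subunit protein that binds zinc, had a D1 island of 0.4 kb with 62 reads (47.5 to 79.5) at percentile 9.75. This island ended just upstream of the annotated start and lay within the H3K4me3 peak of *Rps29*, which ranked at 96.7 in A2a and 97.3 in D1. Both marks were therefore called at 1 member promoter in A2a (*Rpl38*) and 1 in D1 (*Rps29*), against 9.84% and 5.79% of all genes. With a promoter of 1 kb either side of the start, no island was counted at a member in A2a, and 2 were in D1. Reads of A2a and D1 islands are not normalized between the lists.

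Fewer member promoters than promoters in general had an H3K27me3 island within 10 kb, while median distances were similar. With islands that touch the promoter included, there were 10 such members in A2a (13.9%) and 5 in D1 (6.94%), against 36.0% and 26.1% of all genes. An island touched the promoter itself at 22.4% of all genes in A2a and 15.8% in D1, and at 2 members in each list. The contrast within 10 kb therefore includes that at the promoter, and islands beyond the promoter were not counted alone. The median distance to the nearest island was 29.0 kb in A2a and 45.9 kb in D1, against 26.2 kb and 50.8 kb for all genes. The nearest without overlap in A2a were at *Rplp2* (0.77 kb away, 93 reads), *Rpl30* (2.76 kb, 900 reads), *Rpl34* (3.60 kb, 226 reads), *Rps27* (4.75 kb, 106 reads) and *Rpl37* (5.25 kb, 131 reads). In D1 they were at *Rpl34* (2.20 kb, 75 reads), *Rpl30* (3.56 kb, 332 reads), *Rpl38* (8.52 kb, 120 reads), *Rpl28* (11.3 kb, 176 reads) and *Rplp2* (12.6 kb, 105 reads). The island near *Rpl30* was among the larger ones in both lists, at percentile 93.8 by reads in A2a and 91.8 in D1, while the promoter peak of *Rpl30* ranked at 99.3 and 98.8. *Rpl12* lay furthest, 605 kb from the nearest island in both lists.

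Ribosomal protein promoters more often ranked higher in D1 than in A2a, whereas genes in general more often ranked higher in A2a. The percentile was higher in D1 at 48 of 69 members with a peak in both lists (69.6%), against 34.6% of 11788 genes. Fold enrichment was higher in D1 at 51 of 69 (73.9%), against 40.8% of those genes. By a percentile of fold enrichment, 12 members ranked higher in A2a, in place of 21 by −log10 q. With equal numbers of peaks per list, 16 did. No share over all genes was counted for either recount. The A2a list is longer, so the same rank from the top gives a higher percentile in A2a. The median difference in percentile, D1 minus A2a, was 2.69 for the members and −3.87 for all genes. By subunit, 30 of 42 large and 18 of 27 small subunit genes ranked higher in D1. Among mitochondrial ribosomal protein genes 45 of 76 did (59.2%), among the other tract mRNAs 12 of 17, among ribosome assembly genes 6 of 14, and among the X-linked ribosomal protein genes 1 of 4. Read over the protein-coding transcript starts, 53 of 72 members (73.6%) ranked higher in D1, against 35.6% of 11541 genes. For *Rpl3* that reading set the A2a peak at the annotated start beside the D1 peak further inside the gene. The A2a and D1 percentiles of the members ran in parallel (Spearman's rho 0.865 across 69 genes, 0.842 across 11788), a description over genes that share their sequence and mapping in both lists.

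**Figure D5:**
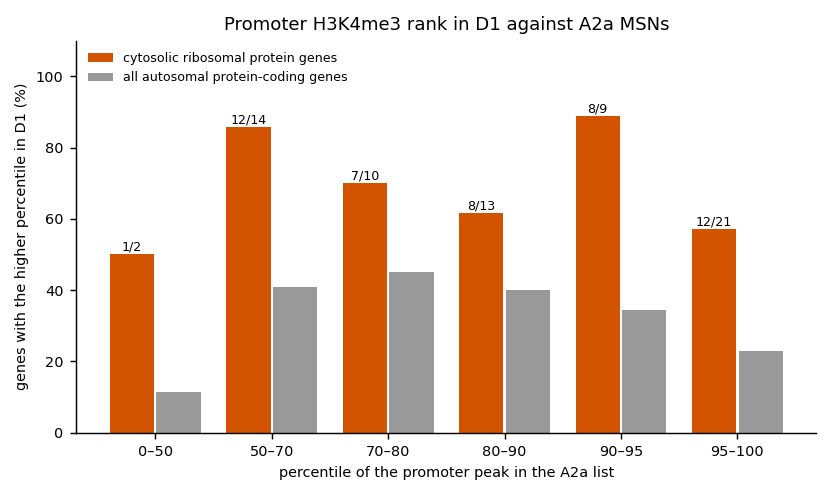
Share of genes (%) whose promoter H3K4me3 peak had a higher percentile in D1 than in A2a, in classes of the A2a percentile, for cytosolic ribosomal protein genes (orange, with counts) and all autosomal protein-coding genes (grey). The orange bar is the taller one in each of the 6 classes, from 1 of 2 members below the 50th percentile to 12 of 21 above the 95th. The A2a percentile that sets the classes is itself part of the comparison, so they do not remove the difference in rank.

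The members differ from other genes in rank, and the share of genes that ranked higher in D1 depended on rank. This share was therefore also counted within classes of the A2a percentile. That percentile is itself part of the comparison, so the classes do not remove the difference in rank. Above the 95th percentile 12 of 21 members ranked higher in D1, where 22.9% of 1239 genes did. From the 90th to the 95th percentile it was 8 of 9, against 34.5%, and from the 80th to the 90th 8 of 13, against 40.2%. From the 70th to the 80th it was 7 of 10, against 45.1%, from the 50th to the 70th 12 of 14, against 40.8%, and below the 50th 1 of 2, against 11.4%. With 1 pooled list per cell type, these shares compare the lists and not the cell types. Whether sex, depth, list length or library preparation moved with them was not tested.

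The widest gaps towards D1 were at *Rpsa* (67.5 in A2a and 89.6 in D1, 10.3-fold and 12.5-fold), *Rplp0* (62.9 and 83.0, 9.22-fold and 11.0-fold), *Rps12* (78.7 and 98.3, 6.90-fold and 8.99-fold), *Rpl14* (77.8 and 96.5, 8.46-fold and 11.0-fold) and *Rpl6* (55.6 and 72.3, 8.67-fold and 10.1-fold). *Rpsa* encodes a small subunit protein that was first described as a laminin receptor. Towards A2a, at the annotated promoter, they were at *Rpl23* (87.8 and 70.9, 8.93-fold and 7.32-fold), *Rpl35* (63.2 and 48.0), *Rps14* (80.6 and 65.6), *Rpl3* (76.6 and 62.8, 6.71-fold and 6.34-fold) and *Rpl28* (79.1 and 69.4, 9.41-fold and 8.67-fold). For *Rpl35* and *Rps14* the strongest A2a promoter peak did not cover the annotated start, and the *Rps14* peak inside the gene had the opposite order (89.7 and 99.0). The A2a promoter peak of *Rps14* also covered a protein-coding start of another gene, *Ndst1*, and the D1 promoter peak did not. *Rpl3* also had a protein-coding start 8462 bp inside the gene, under a peak of the opposite order (74.5 and 92.6, 7.82-fold and 9.31-fold).

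A C at the annotated start was found at 25 members (34.7%), against 17.2% of all genes. A tract, counted as a C at the start followed by at least 4 pyrimidines, was found at 7 members (9.72%), against 2.34% of all genes. The first 20 bases of 6 of these transcripts are shown with the tract in capitals, since the tract is the sequence feature for which these mRNAs are known.
Rpl32, chromosome 6, start at 115808747, minus strand: CTTCCTTCTTCCTCggcgct
Rpl4, chromosome 9, start at 64173375, plus strand: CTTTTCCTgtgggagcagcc
Rpl37, chromosome 15, start at 5116645, plus strand: CTCTTCCggtctctttggcc
Rps21, chromosome 2, start at 180257377, plus strand: CCCTCCTgcccaatagtgct
Rpl36, chromosome 17, start at 56613416, plus strand: CTTCCTgtcccggccgccat
Rpl37a, chromosome 1, start at 72711290, plus strand: CTCTTCggacttgggcttgg

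*Rpl32* had the longest of these tracts, with 14 pyrimidines, and stood at percentiles of 99.7 (A2a) and 99.6 (D1). *Rpl36* had a tract of 6 pyrimidines and ranked at 57.3 and 63.7. The median percentile of the 7 members was 95.3 in A2a and 99.0 in D1, against 86.1 and 90.04 for the 62 members with peaks and no tract at the annotated start. At any annotated protein-coding transcript start a tract was found for 21 members (29.2%), against 5.21% of all genes. Within 5 bases of the annotated start it was found for 20 members (27.8%), against 19.2%. Annotated starts need not be the bases at which transcription begins in these nuclei, which was not measured.

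Other sequence features were counted from 250 bases before to 50 bases after the annotated start. An ETS-type match (CCGGAAG, either strand) was found at 20 members (27.8%), against 11.0% of all genes, and a YY1-type match (AAGATGG, either strand) at 9 (12.5%), against 6.24%. A GC box (GGGCGG, either strand) was found at 30 members (41.7%), against 43.7%, and TATAA in the window named above at 2 (2.78%), against 4.30%. ETS-type and YY1-type matches shared bases at 0 members, and 27 members held none of the GC box, ETS-type and YY1-type letters. No share over all genes was counted for either value. The ratio of observed to expected CpG had a median of 0.828 at the members and 0.540 over all genes, while the share of G and C was alike, at 55.5% and 55.3%. Members with an ETS-type match had a median percentile of 88.2 in A2a and 93.6 in D1, and those without 86.5 and 90.2. For a YY1-type match the order differed between the lists, with medians of 90.6 and 90.2 with it and 87.0 and 92.0 without. Members with a GC box had medians of 84.4 and 88.0, and those without 88.0 and 95.5.

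In the annotation, 15 members (20.8%) had a protein-coding start on the other strand within 1 kb, against 11.2% of all genes. The closest pairs were *Rps28* with *Ndufa7* (10 bp apart), *Rps27* with *Rab13* (44 bp), *Rpl9* with *Lias* (53 bp), *Rps2* with *Rnf151* (53 bp) and *Rpl12* with *Lrsam1* (55 bp). A peak at such a promoter cannot be assigned to 1 of the 2 genes. Members with such a start had a median percentile of 91.9 in A2a and 95.1 in D1, and those without 86.3 and 89.6. Many small nucleolar RNAs (snoRNAs), which guide rRNA modification, are made from introns of ribosomal protein genes, and 27 members held at least 1, up to 5 in *Rpl4*. The share of such hosts over all genes was not counted. The snoRNA hosts had a median percentile of 86.3 in A2a and 89.9 in D1, against 87.9 and 91.6 for the other members. Members were short genes, with a median length of 3329 bp (828 to 31449 bp) against 17629 bp.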

How the data were processed

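CnR reads of sfGFP-positive striatal nuclei were mapped to mm10 by the authors with bowtie2 (version 2.1.0), filtered at a mapping quality of at least 20 (samtools version 0.1.19), deduplicated with Picard and restricted to inserts of 150 to 500 bp. For H3K4me3 the authors ran MACS2 with q below 0.01. Deposited for each peak are its fold enrichment (a ratio to local background), its −log10 q-value and its summit position. For H3K27me3 the authors ran SICER (window 200 bp, gap 600 bp, false discovery rate 0.01) against a control that is not named in the sources used here, and the deposited value is a count of reads. Each list pools 2 replicates, so it holds no spread between mice. Of the 28 samples, 8 stand behind the lists, and the other 20 were not analysed here.

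Genes came from GENCODE vM21 and sequence from GRCm38.p6, the build of the lists. Promoters, overlaps, percentiles and distances were computed in Python (version 3.11.15) with numpy (version 2.4.6) and scipy (version 1.17.1), and plotted with matplotlib (version 3.10.9). No statistical test was made, and members are set beside all autosomal protein-coding genes. The procedures were tested on simulated data. The members and lists were chosen with earlier results of these data known.

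Named were members without a peak or with an island, the 5 highest and 5 lowest percentiles in each list, the 5 widest gaps in each direction, the 3 longest and 3 shortest peaks, the 5 members nearest an island, the 5 nearest opposite starts and the listed gene groups (mitochondrial genes and pseudogenes as counts). *Rps24*, *Rps14* and *Polr3a* at starts inside genes, *Ndst1*, *Rpl12* and the transcripts with a tract were added after values had been seen. A few genes that this rule names are not reported here. 1 listed paralog, *Rps4l*, was not found among the protein-coding genes. Values were recomputed with other promoter windows, overlaps, thresholds, equal list lengths, starts, ranks and gene sets.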

Additional observations from a re-analysis of the deposited data

How the results depend on the processing

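The 15 summary values were recomputed under 96 alternatives, and 86 stayed within the limit set for them (a fixed ratio for a count, the interval from order statistics for a median). The count of H3K27me3 islands at member promoters in A2a changed from 2 to 0 with a promoter of 1 kb either side of the start, to 1 with a minimum overlap of 200 bp and to 1 with equal numbers of islands per list. The D1 count changed from 2 to 1 when islands of at least 2000 bp were kept. Ranked by fold enrichment in place of −log10 q, the median percentile was 74.9 in A2a and 84.9 in D1, against 63.1 and 65.5 for all genes. On that ranking 12 members in place of 21 ranked higher in A2a, and no share over all genes was counted. The number of members with a tract changed from 7 to 21 over all protein-coding transcript starts, to 20 within 5 bases of the annotated start and to 4 with at least 6 pyrimidines after the C. The counts of H3K4me3 peaks stayed within the limit under each alternative tried. No paired analysis was possible because each deposited list pools its replicates, and for the same reason no replicate could be left out. How deep a library was sequenced cannot be read from the lists, and a missing peak or island means only that none was called.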
